A study of Porphyridium purpureum with 12 samples.

Results

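A set of 51 genes, of the 9898 in the count table of the unicellular red alga Porphyridium purpureum, had mean transcript counts that were lower at each step as the culture used up its nitrate. The genes were chosen by their measured values. Counts were scaled by DESeq2 size factors, which set each library to a common depth, and a gene was kept when its mean in nitrogen-replete cells was at least 50 scaled counts, when both nitrogen-limited means were lower than that by at least 1 on the log2(mean + 1) scale, and when the late-depleted mean was lower than each nitrogen-limited mean by at least 1 more. The criteria were met by 53 genes. Of 5 genes that the rule left out by name, 2 met them and 3 did not. The levels of the 51 genes in the 4 conditions, and the differences between conditions that the rule used, are therefore descriptions, and where calls from a fit over all genes are counted for those contrasts, nothing is read from the counts. The single contrast between conditions that the rule did not use directly was NL2 against NL1, though its limits also bound that difference.

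The study followed strain 1380/1A in stirred photobioreactors under constant light, in a medium whose nitrate the cells consumed, and compared transcriptomes along this natural decline. Cells were sampled at 1.5 g/L residual NaNO3 at the start of logarithmic growth (nitrogen-replete, NR), at 0.6 g/L (nitrogen-limited, NL1) and 0.5 g/L (NL2) before the stationary phase, and at 0.3 g/L in the stationary phase (late-stage nitrogen-depleted, LND). All conditions came from wild-type cells of 1 strain with no added agent, and residual nitrate, culture age and growth phase change together, so they cannot be told apart. Each condition has 3 poly(A) RNA libraries, which the labels and the study's main text describe as technical replicates, in the labels of 1 biological sample, while a plot legend of the study speaks of biological replicates. The labels are followed here, and every error and p-value below then measures the spread between libraries and not between cultures.

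Library totals ran from 6398926 to 30556820 counts, and NR replicate 3 was the shallowest library. It differed by more than 1 from the mean log2 level of the other NR libraries in many genes, upward in 5.52% and downward in 9.42% of the 8872 genes with an NR mean of at least 50, and values that rest on it are given with and without it. Reads were mapped only to the genome of this alga, so counts on its photosystem genes could not test the labelled cell type. Their levels are given as a description. The gene psbO (POR0335), a subunit of the oxygen-evolving complex, had 9332 to 15390 scaled counts in NR libraries and 16198 to 20921 in LND libraries. Its range was 35237 to 52502 in NL1 and 38307 to 48629 in NL2. The light-harvesting gene LHCA4 (POR6098) had 7817 to 16928 in NR and 20055 to 25187 in LND. Its range was 50172 to 96708 in NL1 and 83048 to 89328 in NL2. Scaling by library totals in place of TMM moved the median log2 fold change of all genes in LND vs. NR to -0.35, against -0.04 with TMM, and edgeR fold changes are given on the TMM scale. Levels and falls are on the scale of the DESeq2 size factors. In a bulk culture, fewer cells that express a gene and less of its RNA per cell cannot be told apart.

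Nitrogen supply sets how much protein and pigment an alga can make. Nitrate is taken up by high-affinity transporters, reduced by nitrate and nitrite reductase and assimilated through glutamine synthetase, and in red algae the phycobilisome antenna is a large store of protein nitrogen that can be drawn on when nitrate runs short. As nitrate disappears, algae commonly cut transcripts for growth and protein synthesis and direct carbon to storage and extracellular polysaccharides.

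None of the 51 genes carries a product name in the study's pathway and carbohydrate-enzyme tables, and the portion of its annotation sheet used here pairs genes with protein accessions and no names, so the genes are described by their identifiers and given no function. With the nitrate transporters POR8948 and POR1427 left out by the rule, none belongs to the lists of nitrogen assimilation (10 genes), photosynthesis (13 genes), the pentose phosphate pathway (7 genes), glycolysis and gluconeogenesis (20 genes), oxidative phosphorylation and proton pumps (19 genes), nucleotide sugar synthesis (9 genes), polysaccharide polymerization (5 genes) or the 89 carbohydrate-active enzymes. The set is spread over 18 of the 52 scaffolds named in the table. The scaffold scf295_1 held 13 of the 51 genes (25.5%) and 26.5% of all genes. The small scaffold scf246_12 held 4 of the 51 (POR0077, POR1757, POR4525 and POR8558) and 152 genes in all, which is 1.54% of the table.

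The 2 genes that met the criteria but were left out by name are both annotated as high-affinity nitrate transporters of the NRT2.5 type. The study lists further NRT2.5 genes, and reports that POR6298 among them was higher in LND than in NL1 and NL2. POR8948 had 2185, 2029 and 2388 scaled counts in the NR libraries, 432, 705 and 744 in NL1, 743, 743 and 589 in NL2, and 89.1, 73.2 and 157 in LND. POR1427 had 1325, 1014 and 1316 in NR, 253, 235 and 283 in NL1, 241, 228 and 214 in NL2, and 82.2, 58.0 and 111 in LND. In both, no library of a condition overlapped one of the condition before or after it, NL1 and NL2 taken as 1 stage. Several other genes of nitrogen assimilation took only the second step. The nitrate reductase gene POR6787 had 5385, 4977 and 7499 scaled counts in NR, 6937, 6543 and 7803 in NL1, 6971, 7317 and 5486 in NL2, and 745, 810 and 1241 in LND. Nitrite reductase (POR2445), which reduces nitrite to ammonium, ran from 8235 to 9607 scaled counts in the NR libraries, from 15052 to 17553 in the NL1 libraries, from 15515 to 18172 in the NL2 libraries and from 2998 to 3711 in the LND libraries, and so was also lowest in LND.

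Over the 10 nitrogen assimilation genes, a list the study assembled on these same libraries and so no independent evidence of direction, 3 were called lower and 1 higher in NL1 vs. NR, against 7.92% and 6.55% of all genes tested, with a median log2 fold change of -0.13 against 0.01 over all genes tested. In LND vs. NL1, 7 were called lower and 2 higher, against 5.75% and 6.51% of all genes tested, with a median of -1.39 against -0.03 over all genes. Calls throughout rest on edgeR's quasi-likelihood test with TMM scaling, a Benjamini-Hochberg adjusted p under 0.01 and a change of at least 1 on the log2 scale. Of the 13 photosynthesis genes, also picked by the study from these libraries, 12 were called higher in NL1 vs. NR, against 6.55% of all genes tested, and 10 were called lower in LND vs. NL1, against 5.75%. By the scaled means, 3 of the 10 nitrogen genes and none of the 13 photosynthesis genes met the first step of the rule, against 9.75% of all genes. The second step was met by 6 and 9 of them, against 4.98% of all genes.

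Across the 51 genes, the NR mean ran from 55.4 to 118969 scaled counts, with a median of 236.6. These are read counts that were not divided by transcript length, so an order of genes by them is an order of reads. The NR mean was at least 1000 in 11 genes, from 200 to 1000 in 16 genes and under 200 in 24 genes. The median level was 19.5% of the NR mean in NL1, 17.5% in NL2 and 5.46% in LND. Measured to the mean of the NL1 and NL2 log2 levels, the first fall had a median of 2.39 and ran from 1.20 to 5.06, and the further fall to LND had a median of 1.47 and ran from 1.08 to 3.41. The first fall was the larger in 42 genes and the second in 9.

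**Figure D1:**
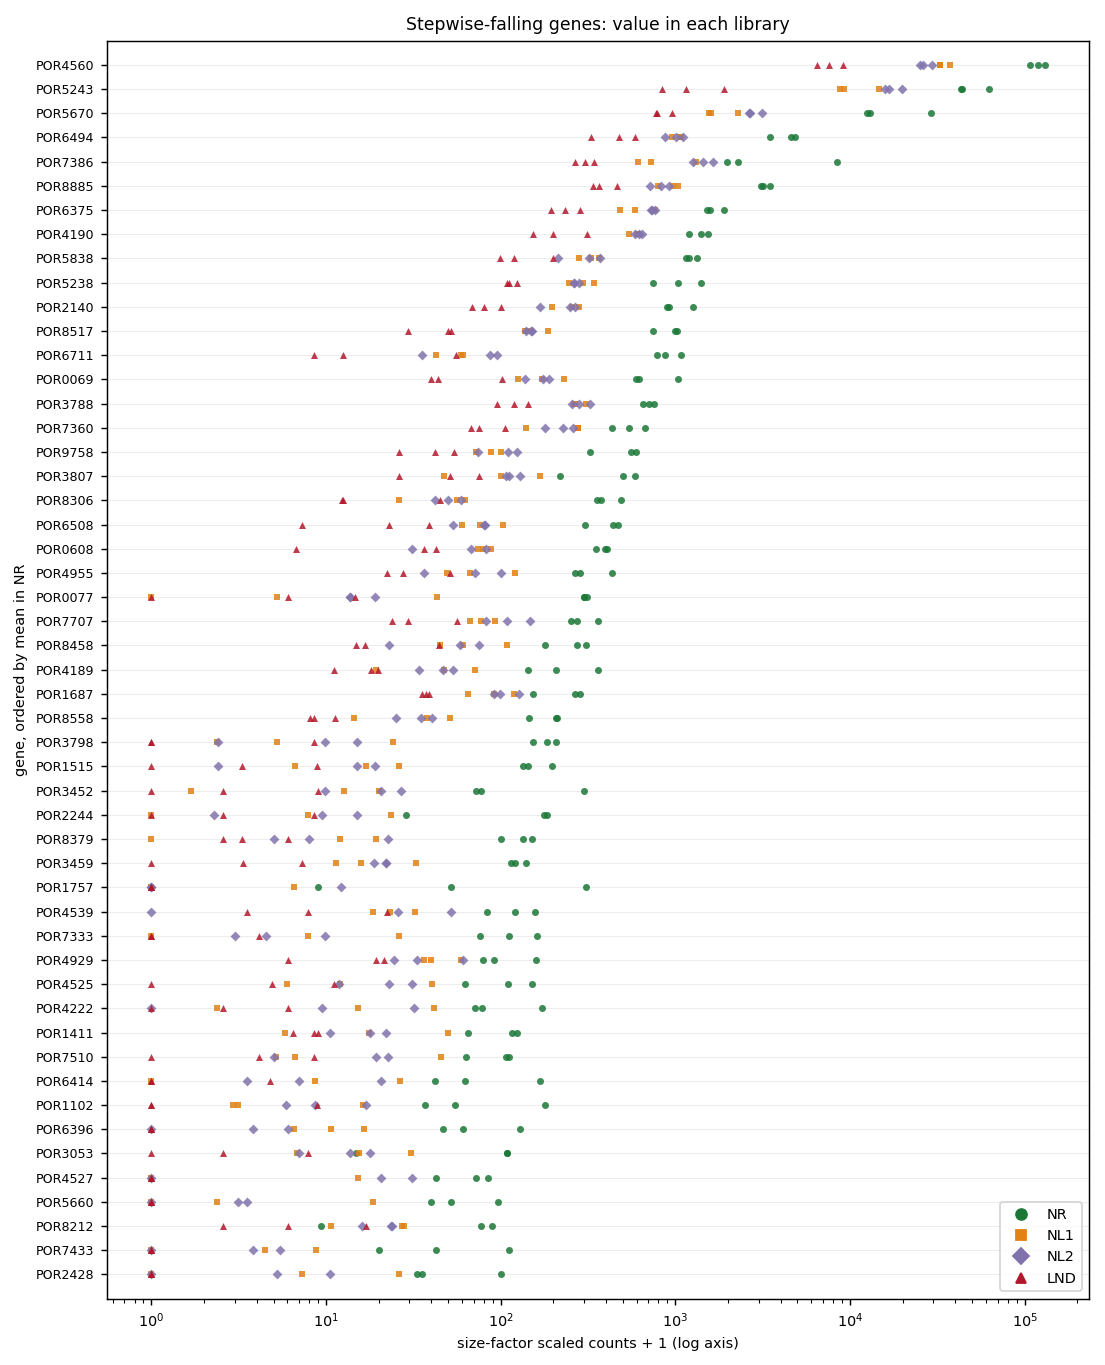
Scaled counts plus 1 on a log axis for each of the 51 genes (rows, ordered by NR mean) in each of the 12 libraries, with NR as circles, NL1 as squares, NL2 as diamonds and LND as triangles. The NR libraries all lie above every NL library in 48 genes, while the NL libraries all lie above every LND library in 22 genes, mostly among the upper rows.

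Genes with many reads showed the steps most clearly. POR4560, on scaffold scf295_1, was the gene with the seventh highest NR mean in the whole table and took 0.612% of all counts of NR replicate 1. Its scaled counts were 119478, 107164 and 130266 in NR, 32659, 32750 and 37360 in NL1, 25255, 26055 and 29334 in NL2, and 9100, 7528 and 6460 in LND. No library of a stage overlapped another stage, and the 2 falls were nearly equal, 1.97 and 1.98 on the log2 scale. LND was at 6.47% of the NR mean.

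POR5243, on scf227_4, was the gene whose second fall exceeded its first by most, 3.41 against 1.85. It had 43706, 43202 and 62411 scaled counts in NR, 8728.2, 9208 and 14741 in NL1, 16637, 15938 and 19941 in NL2, and 1889, 1154 and 840 in LND. All 3 NL2 libraries were above all 3 NL1 libraries, and LND was at 2.60% of the NR mean. POR5670, on scf208_2, had the opposite balance, with a first fall of 3.02 and a second of 1.42. It had 12488, 13072 and 29184 scaled counts in NR, 1596, 1555 and 2286 in NL1, 2645, 2660 and 3114 in NL2, and 954, 787 and 778 in LND. NR replicate 3 was the highest by far, well above the other NR libraries, and every NL2 library was again above every NL1 library.

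Of the next 5 genes by NR mean, POR6494 had 4567, 4810 and 3485 scaled counts in NR, 1075, 951 and 1064 in NL1, 1100, 1013 and 876 in NL2, and 328, 476 and 582 in LND. POR8885 had 3167, 3464 and 3074 in NR, 1028, 799 and 968 in NL1, 829, 915 and 712 in NL2, and 461, 338 and 362 in LND. In these genes NL1 and NL2 overlapped, and the 3 stages did not. POR7386 had 2274, 1968 and 8457 scaled counts in NR, 727, 609 and 1309 in NL1, 1260, 1434 and 1650 in NL2, and 265, 341 and 301 in LND. Its NR mean of 4233 fell to 2121 without replicate 3, and without that library POR7386 no longer met the rule.

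POR6375 and POR4190 took the mildest first steps among the genes with many reads. POR6375 had 1587, 1509 and 1894 scaled counts in NR, 480, 760 and 588 in NL1, 768, 727 and 736 in NL2, and 232, 192 and 284 in LND. POR4190 had 1529, 1188 and 1399 in NR, 600, 612 and 539 in NL1, 617, 584 and 639 in NL2, and 152, 310 and 199 in LND. POR4190 had the smallest first fall of the set, 1.20, and its second fall was 1.44.

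**Figure D2:**
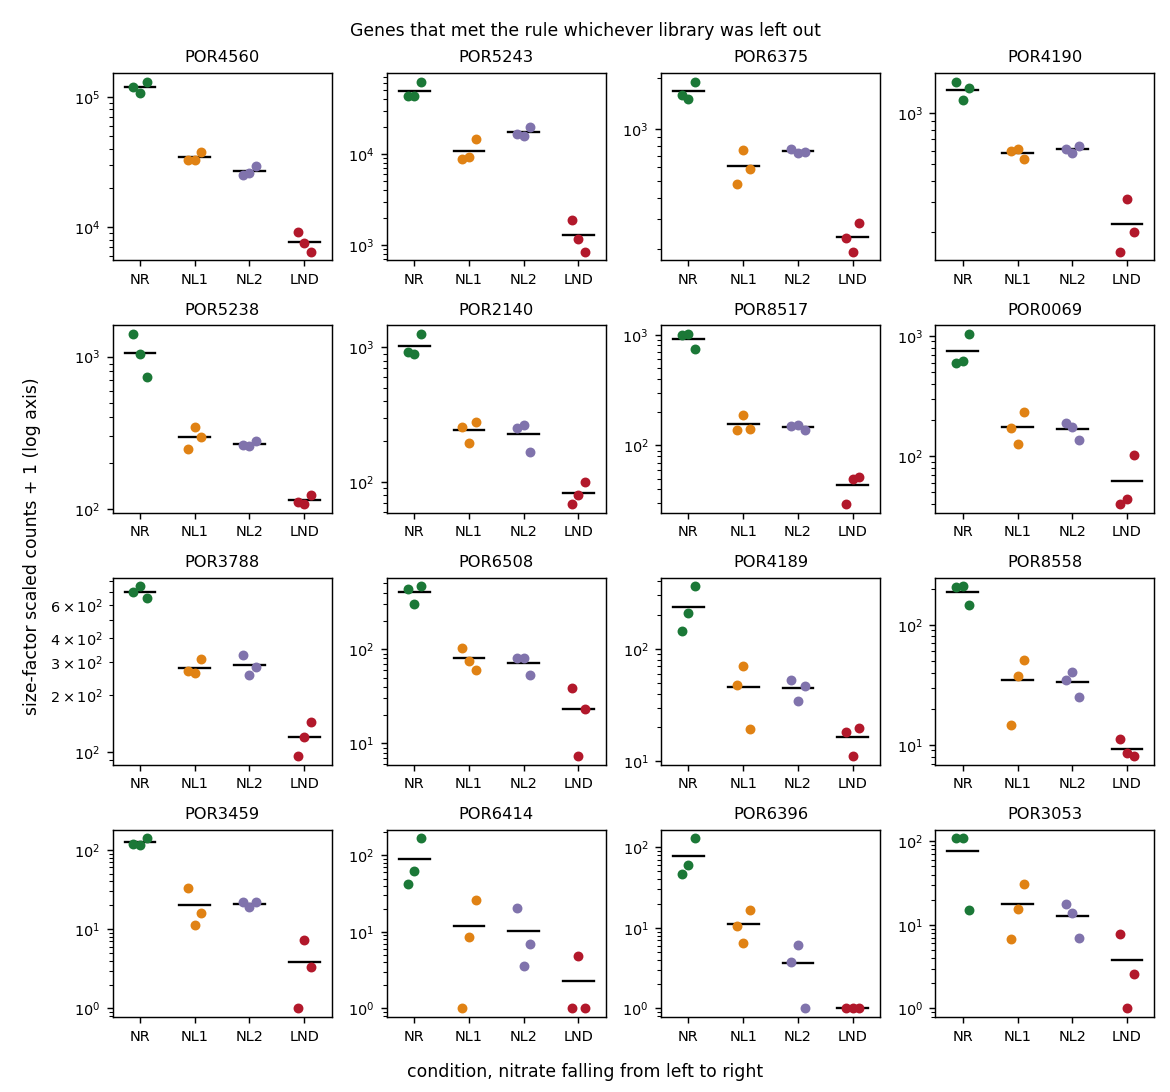
Scaled counts plus 1 (log axis, a separate range in each panel) in the libraries of NR, NL1, NL2 and LND for the 16 genes that met the rule whichever of the 12 libraries was left out. Points are libraries and bars are means of 3, and POR4560 at the top left goes down in 2 steps of nearly equal size.

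The smallest falls from NR to LND in the set were those of POR3788 (2.56), POR4190 (2.63), POR1687 (2.66) and POR7360 (2.73). POR3788 had 701, 754 and 655 scaled counts in NR, 267, 260 and 308 in NL1, 325, 254 and 280 in NL2, and 93.7, 119 and 143 in LND, so LND was still at 16.8% of the NR mean. POR1687 had 152, 265 and 283 in NR, 90.9, 63.7 and 118 in NL1, 126, 97.9 and 90.0 in NL2, and 34.3, 37.9 and 36.1 in LND. In both genes the stages did not overlap, although NR replicate 1 of POR1687 was close to the highest NL library. For POR7360 the NR libraries ran from 433 to 672 scaled counts, the NL1 libraries from 139 to 277, the NL2 libraries from 179 to 257 and the LND libraries from 66.3 to 105.

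The genes with the largest falls had few reads. POR1757, POR6396, POR4527, POR5660, POR7433 and POR2428 had no count in any LND library, and POR7333 had 4 counts over the 3 LND libraries. With a limit of 3 counts over the condition in place of 0, the LND level was at least 76.3-fold lower than the NR mean in POR6396, at least 64.1-fold lower in POR4527 and at least 60.7-fold lower in POR5660. These limits were 51.8, 55.3 and 71.9 without NR replicate 3. They cover only the counting error of the LND libraries, and not that of the NR mean or the spread between libraries.

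POR6396 had 46.0, 59.6 and 128 scaled counts in NR, 9.67, 5.54 and 15.5 in NL1, 2.81, 5.09 and 0 in NL2, and none in LND. POR4527 had 71.0, 41.8 and 83.3 in NR, 0, 0 and 14.1 in NL1, and 19.7, 0 and 30.0 in NL2. Its nitrogen-limited mean thus rested on 3 of 6 libraries. POR1757 had the largest fall by the rule's measure, 6.94, with 8.00, 50.7 and 305 scaled counts in NR and counts in only 2 of the 6 NL libraries. The lower limit on its fold between NR and LND was 119 with all NR libraries and 28.8 without NR replicate 3, and its NR mean was then 29.4 scaled counts, below the minimum of the rule. The limit was 56.2 for POR7433 and 54.4 for POR2428 with replicate 3, and 29.8 and 32.5 without it.

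POR3798 and POR0077 had a first fall well above their second, which was 1.48 in POR3798 and 1.14 in POR0077. POR0077 had 297, 298 and 311 scaled counts in NR, 0, 42.2 and 4.24 in NL1, 12.7, 12.7 and 18.0 in NL2, and 13.7, 5.05 and 0 in LND. POR3798 had 151, 206 and 183 in NR, 23.2, 1.38 and 4.24 in NL1, 1.41, 8.90 and 14.0 in NL2, and 0, 7.57 and 0 in LND. In both genes the NR libraries lay close together and stood far above the rest, whereas the NL and LND libraries overlapped. POR6711 was alike at a higher level, with 1074, 875 and 783 scaled counts in NR, 58.0, 41.5 and 60.03 in NL1, 94.3, 34.3 and 86.0 in NL2, and 11.4, 7.57 and 54.2 in LND. Together with POR1757, where the first fall exceeded the second by 3.18, these were the genes with the most uneven steps, at 3.11 in POR0077, 2.72 in POR3798 and 2.56 in POR6711.

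Genes with fewer NR reads had larger falls within the set. The 24 genes with an NR mean under 200 had a median first fall of 2.92 and a median second fall of 1.87, against 1.92 and 1.44 in the 11 genes with an NR mean of at least 1000. The second step of the low genes was read from few counts. Over the 3 LND libraries together, the 51 genes had a median of 47 raw counts and a range from 0 to 22164. POR6414 was the only gene with 1 to 3 LND counts, and its ratio of NR to LND was 68.6, with an exact 95% binomial interval from 23.0 to 337 for counting error. Without NR replicate 3 the ratio was 48.1, with an interval from 15.9 to 238.

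The first step separated the libraries more often than the second. All NR libraries lay above all NL libraries in 48 of the 51 genes, against 22.2% of the 8872 genes with an NR mean of at least 50, and the exceptions were POR1757, POR3053 and POR8212. All NL libraries lay above all LND libraries in 22 of the 51, against 19.8% of those 8872 genes. Both separations were seen in 22 genes, against 3.35%. The rule used these differences, so the counts describe the set. The 22 genes included all 11 with an NR mean of at least 1000.

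The edgeR fits of the contrasts that chose the genes are given as a description only. In NL1 vs. NR, 50 of the 51 genes passed the filter on low counts and 24 were called lower, against 7.92% of all genes tested. In NL2 vs. NR, all 51 passed and 34 were called lower, against 9.08%. In LND vs. NR, 50 passed and 48 were called lower, against 11.8%. Without NR replicate 3 these counts were 34, 38 and 50. Calls in either direction over all genes rose too, from 1330 to 1791, from 1505 to 2012 and from 1806 to 2174. The NL2 vs. NR count was 21 without NR replicate 2 and 22 without NL2 replicate 1, with 1228 and 1185 calls over all genes.

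The filter removed more genes in the second step, where neither condition had many reads. In LND vs. NL1, 32 of the 51 passed and 14 were called lower, against 5.75% of all genes tested. In LND vs. NL2, 35 passed and 17 were called lower, against 6.52%. The count was 11 without NL2 replicate 2, where calls over all genes went from 1217 to 1164. A gene that passed only because it was high in 1 condition had to differ, and these contrasts chose the set. The 12 genes called in all 5 contrasts were POR4560, POR5243, POR5670, POR6494, POR8885, POR6375, POR4190, POR5838, POR5238, POR2140, POR8517 and POR3788. Only 32 of the 51 genes passed the filter in all 5 contrasts. POR1102, POR1757 and POR8212 were called in none. Of these, POR8212 passed the filter throughout. POR1757 passed it only in NL2 vs. NR, and POR1102 was removed from both contrasts of the second step. For POR1757 and POR1102 the lack of calls is therefore partly a lack of tests. The shares of all genes called in every contrast or in none were not counted.

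POR8517 had one of the widest margins inside the rule among those 12. Its scaled counts were 992, 1015 and 747 in NR, 136, 185 and 141 in NL1, 148, 151 and 138 in NL2, and 28.6, 49.2 and 51.0 in LND. POR2140 had 924, 898 and 1261 in NR, 253, 195 and 278 in NL1, 249, 264 and 166 in NL2, and 67.4, 79.5 and 98.9 in LND. These genes were chosen for display after their values were seen. The nitrogen-limited libraries of each fell in a band that neither NR nor LND entered.

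NL2 against NL1 was the contrast the rule did not use directly, and it asks whether the set went on falling between the nitrogen-limited samplings. The limits of the rule left the direction of this difference open but bound its size. A gene with a small fall from NR to LND, such as POR3788, thus had little room to be called. For such genes the lack of a call is not a result of the test. Of the 51 genes, 45 passed the filter, and POR1757, POR2428, POR5660, POR6396, POR7333 and POR7433 did not. In NL2 vs. NL1, none of the 45 was called by edgeR, as none of the 9104 genes tested was (0%). At an unadjusted p under 0.05 there were 4 of the 45 genes, against 9.08% of all genes tested. DESeq2 called none of the 51 by either of its tests, and only 2 genes in the whole table by each test. It gave an adjusted p to only 4759 genes by the likelihood ratio test and 5131 by the Wald test. How many of the 51 were among those was not counted, so this is not a negative result for each of the 51. The median log2 fold change was -0.06, against -0.01 over all genes tested, with 19 genes higher and 26 lower in NL2. The median SE of a log2 fold change was 0.48 in these genes and 0.16 over all genes, and the shares of counting error and of spread between libraries in it were not tested.

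The 4 genes with the smallest p in this contrast were also among the 5 with the most NR reads. POR5670 had a log2 fold change of 0.63 ± 0.16 (SE), with an edgeR adjusted p of 0.478, and was higher in NL2 in 3 of 3 libraries against every NL1 library. POR5243 had 0.68 ± 0.19 (adjusted p = 0.496, edgeR) and POR7386 had 0.71 ± 0.24 (adjusted p = 0.496, edgeR). POR4560 pointed the other way, with -0.35 ± 0.12 (adjusted p = 0.496, edgeR). In POR5243 and POR5670 the libraries of NL2 and NL1 did not overlap, with NL2 the higher, and in POR4560 they did not overlap with NL2 the lower. In POR7386 NL1 replicate 3 reached into the NL2 range, and without that library POR7386 was called, with a log2 fold change of 1.11 ± 0.16 (adjusted p = 0.00562, edgeR), 1 of 40 genes then called in the whole table.

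**Figure D3:**
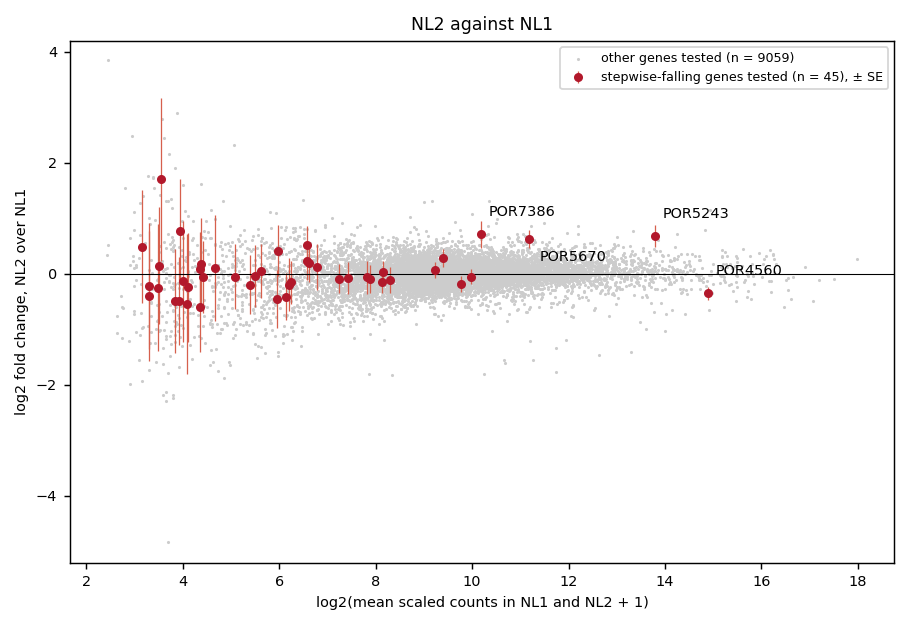
Log2 fold change of NL2 over NL1 (vertical axis) against the log2 mean scaled count of the nitrogen-limited libraries plus 1 (horizontal axis), with the 45 stepwise-falling genes that passed the filter as large points with their SE and the other genes tested as small grey points. The large points lie on both sides of 0, and the named genes are the 4 with the smallest p, of which POR4560 is below 0 and the others above.

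NR replicate 3 departed from the other NR libraries in both directions in these genes, as it did over the whole table. It was above both of them in 27 of the 51 genes (52.9%), against 42.9% of the 8872 genes with an NR mean of at least 50. It was below both in 20 of the 51, against 45.1%. It exceeded their mean log2 level by more than 1 in 11 genes (21.6%), against 5.52% of the genes with an NR mean of at least 50, and was lower by more than 1 in 5 genes (9.80%), against 9.42%. A high value in 1 NR library helps a gene to meet the rule, so the first share was not independent of the choice of genes. The median coefficient of variation over the NR libraries was 29.9% in the set and 19.6% over all genes with an NR mean of at least 50.

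The largest departures were in genes with few reads. POR8212 had 88.0, 76.0 and 8.33 scaled counts in NR, POR3053 had 107, 107 and 13.9, and POR2244 had 176, 182 and 27.8. In these genes NR replicate 3 was the low library, with a value among the NL libraries in POR3053 and below all of them in POR8212. POR3452 had 71.0, 76.0 and 300 scaled counts in NR and POR1102 had 36.0, 53.7 and 178. Without NR replicate 3 the NR mean fell by more than 1.5 times in 7 genes: POR7386, POR3452, POR1757, POR6414, POR1102, POR7433 and POR2428. Leaving out 1 of 3 libraries can raise a mean by at most 1.5 times, so a larger rise could not occur. The largest rises were 1.43 times in POR8212, 1.41 times in POR3053 and 1.39 times in POR2244.

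**Figure D4:**
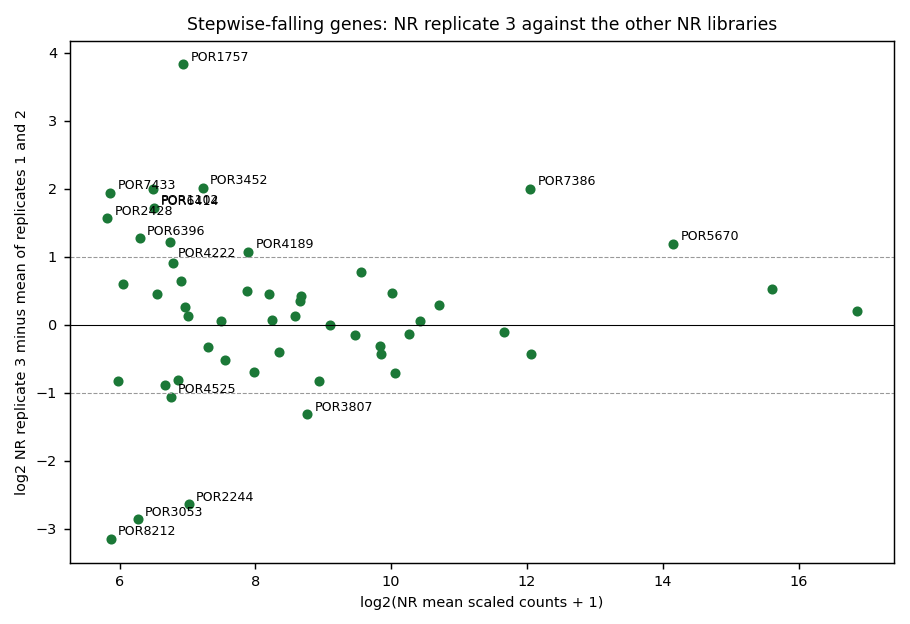
Log2 level in NR replicate 3 minus the mean log2 level in NR replicates 1 and 2 (vertical axis) against the log2 NR mean plus 1 (horizontal axis) for the 51 genes, with broken lines at 1 and -1. The 11 genes above the upper line include POR5670 and POR7386 at high counts, and the lowest points are POR8212, POR3053 and POR2244.

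The rule was then applied without each of the 12 libraries in turn, which gives for each library a set of genes that it took no part in choosing, although the size factors and the other conditions' libraries were shared. Between 42 and 70 genes were found, and 16 of the 51 were found every time: POR4560, POR5243, POR6375, POR4190, POR5238, POR2140, POR8517, POR0069, POR3788, POR6508, POR4189, POR8558, POR3459, POR6414, POR6396 and POR3053. Without NR replicate 3, 44 of the 51 were found again, and the 7 lost were POR1102, POR1757, POR4929, POR1687, POR2428, POR7386 and POR7433. Without LND replicate 2, the library whose absence cost most, 39 were found again.

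A left-out NR library was at least 1 above both nitrogen-limited means, on the log2 scale, in 83.0%, 85.7% and 77.8% of the genes found without it, for replicates 1, 2 and 3, against 10.9% to 11.6% of all genes with an NR mean of at least 50. A left-out LND library was at least 1 below both nitrogen-limited means in 46.2%, 51.8% and 42.9% of the genes, against 5.69% to 7.73% of all genes. The lower step was thus met by a left-out library in about as many genes as not. The means it was set against took part in choosing the genes. In the labels it is also a technical replicate of the libraries kept. These shares therefore describe the set and are no independent support for it. For the nitrogen-limited libraries, which had to lie at least 1 below NR and at least 1 above LND, the shares were 45.0%, 73.3% and 61.9% in NL1 and 70.4%, 75.0% and 50% in NL2, against 0.89% to 1.49% of all genes. With order alone required, and no full step, the shares ran from 68.6% for LND replicate 3 to 98.1% for NR replicate 1.

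**Figure D5:**
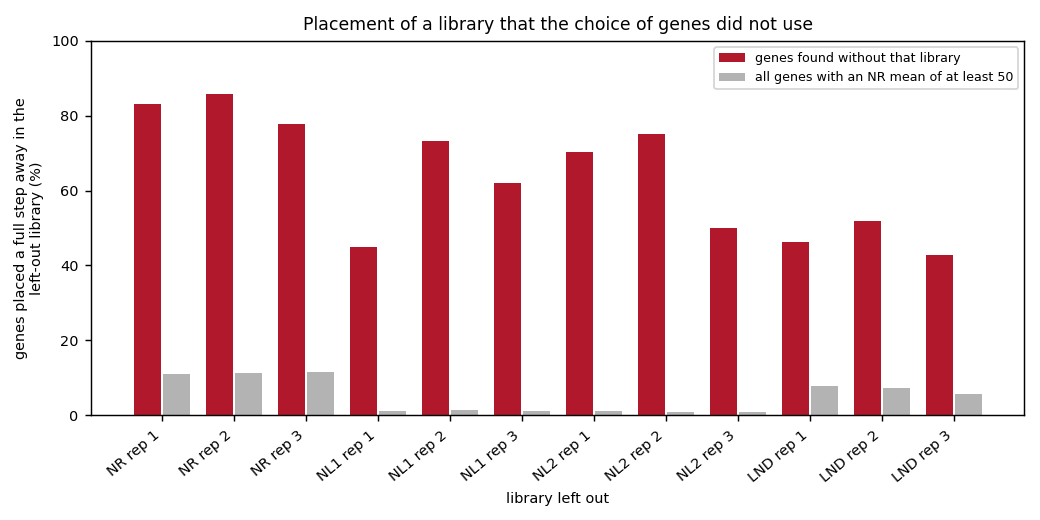
Share of genes (vertical axis, percent) in which a left-out library lies a full step of 1 on the log2 scale from the neighbouring stages, for each of the 12 libraries (horizontal axis), with dark bars for the genes found without that library and grey bars for all genes with an NR mean of at least 50. The dark bars run from 42.9% at LND replicate 3 to 85.7% at NR replicate 2, and the grey bars stay at 11.6% or lower.

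The set as a whole took 1.03%, 0.990% and 1.43% of all counts in the NR libraries, 0.276%, 0.259% and 0.304% in NL1, 0.267%, 0.268% and 0.306% in NL2, and 0.0592%, 0.0502% and 0.0475% in LND. Most of this came from POR4560, POR5243 and POR5670, which were set apart after the data were seen. Without them the set took 0.135%, 0.139% and 0.179% in NR, 0.0368%, 0.0349% and 0.0363% in NL1, 0.0388%, 0.0383% and 0.0373% in NL2, and 0.00970%, 0.0110% and 0.0129% in LND. Shares in NL1 and NL2 were nearly level with and without the 3 leading genes.

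At the edge of the rule, the members closest to its limits were POR1102, with 0.04 to spare on the log2 scale, POR4955 and POR8458, also with 0.04 each. In each of them the fall from a nitrogen-limited stage to LND was the tightest criterion. POR4955 had 283, 432 and 264 scaled counts in NR, 48.3, 119 and 65.7 in NL1, 35.2, 70.6 and 100.0 in NL2, and 50.3, 21.5 and 26.7 in LND. POR8458 had 273, 307 and 178 in NR, 59.9, 108 and 43.8 in NL1, 57.7, 73.7 and 21.99 in NL2, and 43.4, 13.9 and 15.7 in LND. Just outside the rule were POR4454, POR2157 and POR6463, which missed the same step with margins of -0.004, -0.013 and -0.014 on the log2 scale. POR4454 had 80.0, 85.0 and 133 scaled counts in NR, 84.1, 38.1 and 24.7 in NL1, 36.6, 41.3 and 37.0 in NL2, and 38.8, 0 and 17.3 in LND. Genes on either side of the limit thus had overlapping NL and LND libraries.

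The set is small beside the genes that took 1 step only. With the same limits, 912 genes fell from NR to both nitrogen-limited stages without the second step, and 440 fell from both nitrogen-limited stages to LND without the first. Genes that rose in both steps by the mirrored rule numbered 21. The median NR mean was 236.6 scaled counts in the stepwise set, against 933 in the first-step genes, 940 in the second-step genes and 754 over the 8872 genes with an NR mean of at least 50. The difference of the NL2 and NL1 log2 levels, which none of these rules used directly, had a median of -0.07 in the stepwise set, where it was capped. It was -0.11 in the first-step genes and 0.11 in the second-step genes.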

How the data were processed

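The deposited table holds counts of reads per gene, which the authors made from stranded paired-end reads. The submitters' processing notes name STAR 2.7.8a and featureCounts 2.0.1, while whether featureCounts used strand is not given in the sources used here. Every column was matched to a labelled library, and 0 columns were left unused. The 51 genes and the gene lists were chosen with earlier results of these data known. Counts were scaled by DESeq2 1.42.0 size factors (median of ratios) for levels. For each pair of conditions, its 6 libraries were fitted in edgeR 4.0.16 (R 4.3.3) with TMM, filterByExpr (min.count 10) and quasi-likelihood F-tests, adjusted over all genes tested, after a check on simulated data. Genes were named by fixed ranks (NR mean, size and balance of the falls, smallest p in NL2 vs. NL1, nearness to the limits of the rule). Alternatives were DESeq2, other scalings, no filter, 1 fit of all 12 libraries, a replicate block, other limits of the rule and leaving out each library. No sequence or product annotation of the genes was used here.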

Additional observations from a re-analysis of the deposited data

How the results depend on the processing

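The number of stepwise-falling genes, 51 by the rule, was 109 with scaling by library totals, 106 with a step of 0.8 and 18 with a step of 1.5; all 51 were among the genes found with library totals and with the smaller step. It was 55 with TMM scaling, 69 and 41 with an NR minimum of 20 and 100, and 75 with the median of the libraries, of which 40 were among the 51. Leaving out each library gave 42 to 70 genes. The members called in NL1 vs. NR, 24, were 38 by the DESeq2 likelihood ratio test, 39 by its Wald test and 40 at an adjusted p under 0.05. Calls over all genes moved alike, from 1330 to 1630, 1651 and 1682. Leaving out single libraries gave 19 to 34 called members in NL1 vs. NR, 21 to 38 in NL2 vs. NR, 38 to 50 in LND vs. NR, 11 to 14 in LND vs. NL1, 11 to 16 in LND vs. NL2 and 0 to 1 in NL2 vs. NL1. Calls over all genes then ran from 993 to 1791, 1140 to 2012 and 1389 to 2174 in the contrasts with NR. For LND vs. NL1, LND vs. NL2 and NL2 vs. NL1 they ran from 1008 to 1137, 1151 to 1298 and 0 to 40. The main fits did not pair libraries by replicate number. Same-numbered libraries of different conditions had correlations of their deviations from -0.32 to 0.10 over 18 pairs. These values cannot exclude that libraries of the same number were handled together. With a replicate block the called members were 24, 29, 45, 15, 13 and 0 in the same order of contrasts. Calls over all genes were then 1260, 1417, 1723, 1131, 1181 and 0. The second step of the genes with few reads rests on few counts, and their NR libraries also spread widely.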
